A study of Rattus norvegicus with 6 samples.

Results

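Carbonic anhydrases and bicarbonate transporters were described by 9 genes, 7 carbonic anhydrases (Car2, Car3, Car5a, Car8, Car9, Car13 and Car14) and 2 transporters (Slc4a2 and Slc4a4), of the 15284 genes that could be named on the array. Every non-control probe whose RefSeq accession belonged to one of them was taken, which gave 16 probes: 5 genes had 1 probe, Car8 had 2, and Car13, Slc4a2 and Slc4a4 had 3 each. The study measured liver RNA of male Sprague-Dawley rats, an outbred stock, aged 9 weeks and given corn oil at 5 mL/kg/day. One group was killed after CO2/O2 anaesthesia (n = 3) and the other after isoflurane anaesthesia (n = 3), with 1 rat per 1-colour array. All 6 rats carried the corn oil vehicle, for which the labels give 3 days in one place and 9 weeks in another, and no group without anaesthesia is analysed here. The CO2/O2 group inhaled the substrate of these enzymes, and the comparison shows how their liver transcripts stood after that exposure and after isoflurane, a volatile anaesthetic.

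Carbonic anhydrases are mostly zinc enzymes that interconvert CO2 and water with bicarbonate and a proton. They differ in where they sit: in the cytosol, in the mitochondrion or at the outer face of the plasma membrane. Bicarbonate hardly crosses a membrane without a carrier, and transporters of the Slc4 family carry it in exchange for chloride or together with sodium. In liver this chemistry feeds bicarbonate to the urea cycle and to gluconeogenesis, sets the pH of the hepatocyte and supplies bicarbonate to bile.

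Of the 9 genes, 5 have an entry among RefSeq promoter windows of the assembly GRCr8, each running from 250 bases before to 50 bases after the transcript start: Car5a, Car9, Car14, Slc4a2 and Slc4a4. Car9, a carbonic anhydrase of the cell surface, is a known target of the hypoxia-inducible factors, so the windows were searched on both strands for ACGTG, the letters at the core of their binding element. The letters occurred once in Car9 and once in Car14 and in none of the other 3 windows, against 19.3% of all 33469 windows of that length. A second search for TTCNNNGAA, the core letters bound by STAT factors, found no match in these 5 windows, against 8.87% of all windows. Both ACGTG matches lie on the strand opposite the gene, so the capitals in these 30-base stretches, written in the direction of the gene, read as the reverse complement.
Car9, chr5:62559012-62559041, GRCr8, plus strand: cttatttccgatgCACGTacagcccgtcca
Car14, chr2:186138202-186138231, GRCr8, minus strand: ccacccccctcctCACGTacaccggttccg
The match begins at base 2 of the Car9 transcript and 54 bases before the start of the Car14 transcript. Both transporter windows were rich in CpG, with 47 in Slc4a4 and 39 in Slc4a2, against a median of 7 over all windows, whereas Car5a had 5, Car9 had 6 and Car14 had 9. A match of letters is a description of the window and not of binding in these livers.

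Signals are given as log2 of the background-corrected intensity relative to the 75th percentile of the same array, so that a level of 0 is that percentile. Levels of different probes cannot be set against each other, since each probe has its own brightness. Each array had 53.4% to 62.3% of its 61657 probes well above background, the scanner's detection call, and the 75th percentile lay between 912.5 and 998.3 intensity units. Differences are isoflurane minus CO2/O2, tested with limma over 34637 probes, and a gene was said to change at an adjusted p under 0.05. Beyond the traits that all 6 rats share, the labels give only the group and number of each rat. The p-values set the difference between the groups against the spread within the groups of these 6 samples. The CO2/O2 arrays and isoflurane replicate 1 lay in the first row of the slide and isoflurane replicates 2 and 3 in the second, so that place on the slide and anaesthesia cannot be told apart beyond that 1 isoflurane array. Of 9 hepatocyte markers 9 were tested, and their log2 summed signal was 11.92 to 12.02 after CO2/O2 and 11.92 to 12.00 after isoflurane.

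Transcripts of 8 of the 9 genes were detected in liver, and those of Car13 were not. All 13 probes of Car2, Car3, Car5a, Car8, Car9, Car14, Slc4a2 and Slc4a4 were well above background on all 6 arrays, as were 51.4% of all probes. The 3 probes of Car13, a cytosolic carbonic anhydrase, were well above background on 0 of 6 arrays, and their levels of -7.56 to -6.06 have no order. None of the 8 tested genes changed between the groups. At an unadjusted p under 0.05 in limma there were 4 of the 8, where 7.58% of the 10609 genes tested reached it. Car3, Car8 and Car9 had positive differences (3 of 8, against 2.72% of all genes in that direction) and Slc4a4 a negative one (1 of 8, against 4.85%). By probe there were 7 of 13, against 7.55% of all probes tested. The count of 4 genes fell to 1 without CO2/O2 replicate 2 or with slide rows blocked, and to 2 without CO2/O2 replicate 1, CO2/O2 replicate 3 or isoflurane replicate 2. No gene of the whole table, read at its brightest tested probe, reached an adjusted p of 0.05 (0.0%), and 3 of all tested probes did (0.00866%). The 8 tested members had a median absolute difference of 0.36 log2 units, against 0.11 for all genes tested, and their median difference was 0.17, against -0.01. These genes were chosen with earlier results of the same arrays known, so this excess is not independent support for a change.

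**Figure D1:**
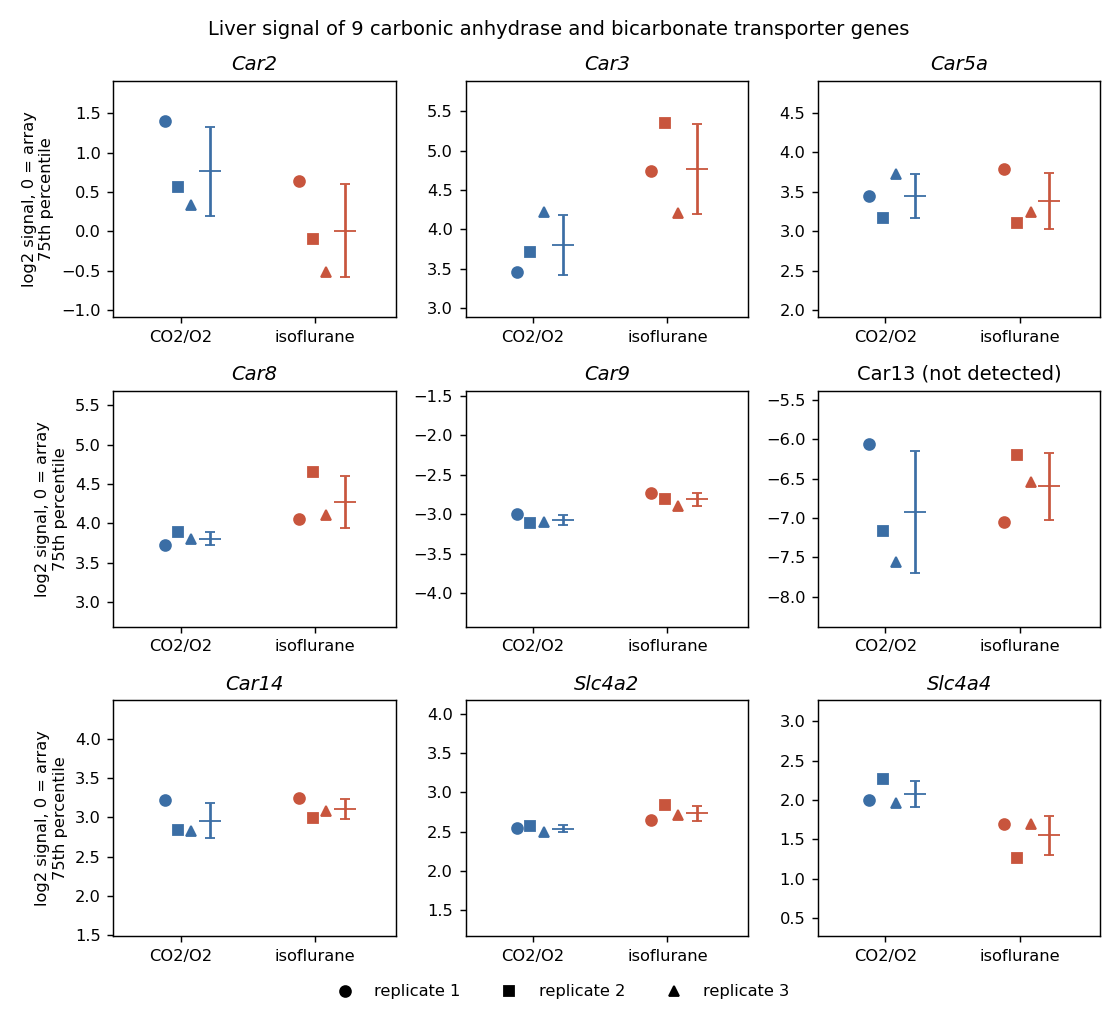
Log2 signal relative to the array's 75th percentile (y axis, each panel spanning the same number of log2 units) for the 9 genes in 3 CO2/O2 rats (blue) and 3 isoflurane rats (red); symbols mark the replicate number, and the bar is the mean with 1 SD. The groups do not overlap for Car8, Car9, Slc4a2 and Slc4a4, and Car13 is below the detection call on all 6 arrays.

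Among the cytosolic enzymes, Car3 had the largest difference of the 8 tested genes. Car3 is a carbonic anhydrase of low activity that is abundant in muscle, fat and the liver of male rats. Its levels were 3.46, 3.71 and 4.21 in CO2/O2 replicates 1 to 3 and 4.74, 5.35 and 4.21 in isoflurane replicates 1 to 3. Isoflurane replicates 1 and 2 lay above all CO2/O2 rats, while isoflurane replicate 3 and CO2/O2 replicate 3 were level. The mean was 3.80 ± 0.38 (SD, n = 3) after CO2/O2 and 4.77 ± 0.57 (SD, n = 3) after isoflurane. The difference of 0.97 ± 0.33 (SE), or 1.96-fold with a 95% confidence interval of 1.14 to 3.39, did not pass the test (limma adjusted p = 0.615). Rats of one group also differed widely in Car3, whose spread within groups was larger than that of 93.7% of the genes tested. In bulk tissue, more cells of a type and more transcript per cell cannot be told apart, so markers of other tissues rich in Car3 were read beside it. Of 8 skeletal muscle markers on the array, 3 were tested and 4, among them Acta1 and Myh4, were above background on no array. The 3 tested, Ckm, Mb and Actn3, were above background on all 6 arrays. Their differences were 0.11 ± 0.33, 0.17 ± 0.11 and -0.36 ± 0.16 (SE). The log2 summed signal of this list was -1.05 to -0.76 after CO2/O2 and -0.99 to -0.58 after isoflurane. Of 6 adipocyte markers on the array, Adipoq and Lep, which define the cell, were above background on no array. The adipocyte list, with 3 genes tested, had a log2 summed signal of 3.92 to 4.57 after CO2/O2 and 3.96 to 4.13 after isoflurane. That sum was almost wholly Cidec and Cfd, whose differences were -0.13 ± 0.12 and -0.43 ± 0.25. The third tested gene, Fabp4, had a difference of 0.86 ± 0.31. Fabp4 was above background on 2 of 3 CO2/O2 arrays and 3 of 3 isoflurane arrays, so that it entered the test through the isoflurane group. Car3 is also known from hepatocytes around the central vein. The 8 markers of that zone had log2 summed signals of 6.60 to 7.17 after CO2/O2 and 6.24 to 6.75 after isoflurane. That sum was mostly Oat and Cyp1a2, whose differences were -0.55 ± 0.25 and -0.25 ± 0.23. Of the 8 differences 6 were negative, Lgr5 (-0.087 ± 0.20) among them. Lgr5 was above background on 3 CO2/O2 arrays and 1 isoflurane array, so that it entered the test through the CO2/O2 group. The part of these cell types in the Car3 values was not tested.

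Car2, the fast cytosolic enzyme of red cells and many epithelia, had the second largest difference, in the other direction. Its levels were 1.40, 0.56 and 0.33 after CO2/O2 and 0.64, -0.10 and -0.52 after isoflurane. The groups overlapped, since isoflurane replicate 1 exceeded CO2/O2 replicates 2 and 3. Mean levels were 0.77 ± 0.56 (SD, n = 3) and 0.0078 ± 0.59 (SD, n = 3), and the difference of -0.76 ± 0.38 (SE) had a confidence interval of -1.69 to 0.17 (limma adjusted p = 0.704). With single arrays left out, it ran from -1.08 without isoflurane replicate 1 to -0.44 without CO2/O2 replicate 1. It was -0.12 ± 0.44 (SE) when slide rows were blocked, where the only isoflurane array compared is replicate 1. Red cell markers, of which 5 of 8 were on the array and 4 tested, had log2 summed signals of 7.12 to 7.57 after CO2/O2 and 6.65 to 7.08 after isoflurane, ranges that do not overlap. That sum was almost wholly the brightest probe of the globin gene Hbb, with 7.54, 7.35 and 7.10 after CO2/O2 and 6.96, 7.05 and 6.63 after isoflurane. A dimmer Hbb probe had 3.23, 2.94 and 2.51 after CO2/O2 and 2.54, 2.70 and 2.12 after isoflurane. Its groups overlapped, with a difference of -0.44 ± 0.23 (SE). The other 3 tested markers overlapped between the groups, with -0.37 ± 0.33 for Alas2, -0.19 ± 0.47 for Ahsp and 0.11 ± 0.26 for Epb42. Their part in the Car2 values was not tested.

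Car8, a cytosolic member of the family that lacks carbonic anhydrase activity and binds the inositol trisphosphate receptor, was higher in every isoflurane rat at both of its probes. At the brighter probe the levels were 3.72, 3.89 and 3.80 after CO2/O2 and 4.05, 4.65 and 4.10 after isoflurane. At the other probe they were 1.62, 1.83 and 1.79 against 2.10, 2.74 and 2.23. The CO2/O2 rats were close together, with an SD of 0.085 at the brighter probe, and the isoflurane rats spread more, with an SD of 0.33. The differences were 0.46 ± 0.17 (SE) and 0.61 ± 0.18 (SE), or 1.38-fold and 1.52-fold, and neither probe passed the test (limma adjusted p = 0.644 and 0.586). Isoflurane replicate 2 carried much of the difference, which was 0.27 at the brighter probe without that array, and 0.25 ± 0.23 (SE) with slide rows blocked.

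Car5a, the mitochondrial enzyme that supplies bicarbonate to carbamoyl phosphate synthetase and pyruvate carboxylase, had levels of 3.44, 3.16 and 3.72 after CO2/O2 and 3.79, 3.11 and 3.25 after isoflurane. These values interleave, and the difference was -0.06 with a confidence interval of -0.60 to 0.48. Its sign turned in 4 of the 17 alternatives that were run, several of which could not change the difference. Car14, an enzyme of the hepatocyte surface with its active site outside the cell, had levels of 3.22, 2.83 and 2.82 against 3.24, 2.99 and 3.07. The groups overlapped here too, with a difference of 0.14 ± 0.14 (SE) and an interval of -0.20 to 0.48. With slide rows blocked, the differences were 0.35 ± 0.23 (SE) for Car5a and 0.28 ± 0.20 (SE) for Car14.

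Car9 had a small difference and little spread. Its levels were -3.00, -3.11 and -3.10 after CO2/O2 and -2.73, -2.81 and -2.90 after isoflurane, so that all isoflurane rats lay above all CO2/O2 rats, the nearest pair being 0.11 log2 units apart. The spread within groups was 0.073, and only 14.1% of the tested genes had a smaller one. The difference of 0.26 ± 0.086 (SE), or 1.20-fold, did not pass the test (limma adjusted p = 0.612). It stayed between 0.22 and 0.30 when single arrays were left out, and it was 0.35 ± 0.12 (SE) with slide rows blocked. With median scaling it was 0.20 ± 0.087 (SE). The unadjusted limma p of 0.022 became 0.056 with median scaling, 0.064 with trended, robust eBayes and 0.055 when dim probes were not filtered. The signal of Car9 was low, and over all probes without that filter the median difference was 0.081. Car9 is also a gene of bile duct epithelium, whose markers, 5 of 6 on the array and 5 tested, had log2 summed signals of 1.10 to 1.35 after CO2/O2 and 1.13 to 1.20 after isoflurane. Their differences ran from -1.19 ± 0.46 for Spp1 to 0.083 ± 0.10 for Epcam. Krt7, at -0.33 ± 0.21, was above background on 3 CO2/O2 arrays and 1 isoflurane array, so that it entered the test through the CO2/O2 group. The part of these markers in the Car9 values was not tested.

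**Figure D2:**
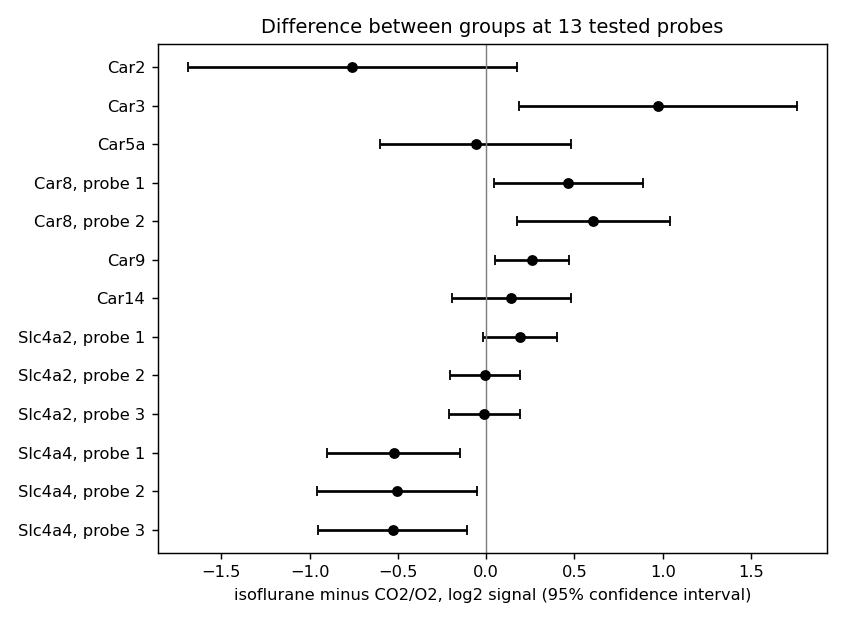
Difference in log2 signal, isoflurane minus CO2/O2 (x axis), at the 13 tested probes of 8 genes, with limma's 95% confidence interval; probes of one gene are numbered from the brightest. The 3 Slc4a4 probes lie between -0.53 and -0.51, both Car8 probes are above 0, and only the brightest of 3 Slc4a2 probes is above 0.

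Of the transporters, Slc4a4 had the largest moderated t of the 8 tested genes, each read at its brightest probe, and its 3 probes gave nearly one value. Slc4a4 encodes the electrogenic sodium-bicarbonate cotransporter NBCe1, which moves bicarbonate with sodium across the basolateral membrane of epithelia and the hepatocyte membrane. At its brightest probe the levels were 2.00, 2.27 and 1.97 after CO2/O2 and 1.70, 1.27 and 1.70 after isoflurane. All 3 isoflurane rats were below all 3 CO2/O2 rats at each probe, and isoflurane replicate 2 was lowest at each. The means were 2.08 ± 0.16 (SD, n = 3) and 1.55 ± 0.25 (SD, n = 3). The difference was -0.52 ± 0.16 (SE) at this probe, 1.44-fold lower after isoflurane, and -0.51 ± 0.19 and -0.53 ± 0.17 at the others. None passed the test, with limma adjusted p = 0.586 at the brightest probe. The difference lay between -0.60 and -0.38 when each array was left out in turn, and was -0.38 ± 0.22 (SE) with slide rows blocked. Probes of one gene read the same RNA and are not replicates of the anaesthesia. Kupffer cell markers, each read at its brightest probe, ran in the same direction: all 8 were tested and all 8 differences were negative. Their log2 summed signal was 6.97 to 7.29 after CO2/O2 and 6.60 to 6.90 after isoflurane. Most of that sum was Clec4f, with a difference of -0.51 ± 0.14. The other probe of Csf1r had 0.027 ± 0.15, with overlapping groups. The part of Kupffer cells in the Slc4a4 values was not tested.

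Slc4a2 encodes the chloride-bicarbonate exchanger AE2, which secretes bicarbonate into bile, and its probes did not give one answer. At the brightest probe the levels were 2.54, 2.58 and 2.50 after CO2/O2 and 2.64, 2.84 and 2.71 after isoflurane, with no overlap and a difference of 0.19 ± 0.087 (SE; limma adjusted p = 0.679). At the second probe they were 1.95, 1.99 and 1.96 against 1.89, 2.05 and 1.94, a difference of -0.0063 with an interval of -0.20 to 0.19. The third probe gave -0.0096. The mean of the 3 probes differed by 0.058. What sets the brightest probe apart was not tested, and the arrays give no positions of the probes on the transcript.

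**Figure D3:**
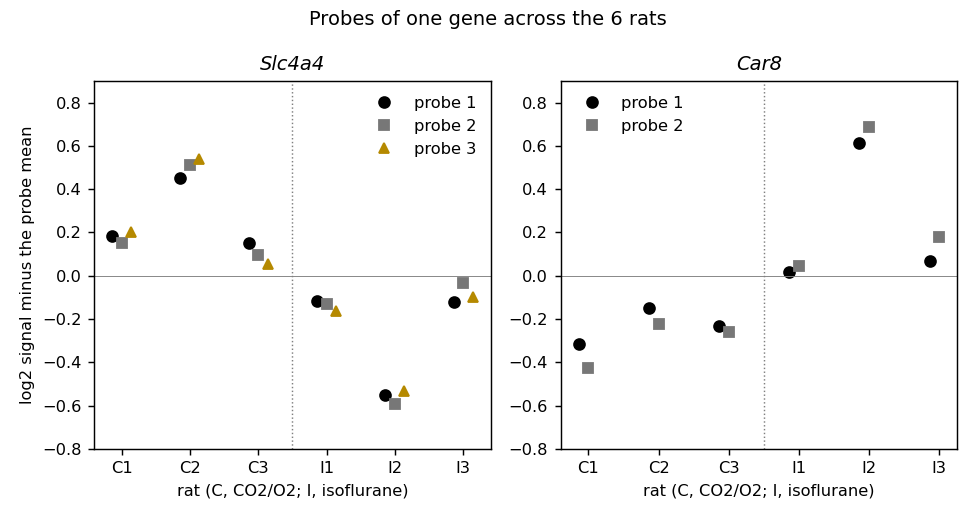
Log2 signal minus the probe's mean over 6 rats (y axis) for the 3 probes of Slc4a4 (left) and the 2 probes of Car8 (right) in each CO2/O2 rat (C1 to C3) and isoflurane rat (I1 to I3). The probes of each gene move together from rat to rat, and rat I2 is lowest for Slc4a4 and highest for Car8.

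Groups that do not overlap were seen for 4 of the 8 tested genes, with Car8, Car9 and Slc4a2 higher and Slc4a4 lower after isoflurane, whereas 14.2% of all genes tested had no overlap. That is 3 of 8 higher, against 6.01% of all genes, and 1 of 8 lower, against 8.16%. Isoflurane replicate 2 stood at the end of the range for several members. It had the highest level of the 6 rats for Car3, Car8 and the brightest Slc4a2 probe and the lowest for Slc4a4 and Car5a. This array also had the smallest share of probes above background, 53.4%, and the most spots marked as outliers, 60 of 61657, none of them of these genes. Without it the differences were 0.68 for Car3, 0.27 for Car8, 0.26 for Car9 and -0.38 for Slc4a4, each with the same sign as before. That of Car5a turned from -0.06 to 0.077.

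Genes whose levels over the 6 rats ran most like 3 of the members were picked by Pearson correlation among 2738 genes (2739 for Car9) with an SD of at least 0.25. The points are 6 rats in 2 groups on 1 slide, so any gene that differs between the groups is alike to another to some degree. Slc4a4 ran most like Lrrc4c (r = 0.981, n = 6), P2ry13, a purine receptor (r = 0.979), and Mcpt8l2, of the mast cell protease family (r = 0.978). Their differences were -0.44, -0.45 and -0.75. Car9 ran most like Sox18, an endothelial transcription factor (r = 0.975), Sh3bgrl1 (r = 0.970) and Plcd1, a phospholipase C (r = 0.946), with differences of 0.46, 0.54 and 0.47. Car3 ran most like Tmem88b (r = 0.985), the deubiquitinase Atxn3 (r = 0.981) and Pdlim1 (r = 0.971), with differences of 0.42, 0.39 and 0.37.

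The other carbonic anhydrases of the family were read from the same fit. Of 9 such genes, 8 were on the array, 4 were tested and 0 changed in limma, with 0 at an unadjusted p under 0.05. Car4 and Car12, both bound to the membrane, were above background on no array. Car1, a cytosolic enzyme of red cells, had levels of -2.43, -2.21 and -1.92 after CO2/O2 and -1.81, -0.74 and -1.75 after isoflurane. Its groups did not overlap, and its difference was 0.75 ± 0.31 (SE; limma adjusted p = 0.661). Like Car3, it was highest in isoflurane replicate 2. Car7, a cytosolic enzyme best known from neurons, had a difference of 0.48 ± 0.25 and overlapping groups. The other 2 tested genes of the list had negative differences and overlapping groups, with -0.89 ± 0.50 for Car6 and -0.083 ± 0.12 for Car11.

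Of 16 other genes of the Slc4 and Slc26 families, listed whether or not each carries bicarbonate, 6 were tested and 0 changed. At an unadjusted p under 0.05 in limma there were 2. Slc4a1, the anion exchanger of red cells, had levels of -0.77, -1.11 and -0.75 after CO2/O2 and -1.70, -1.21 and -1.95 after isoflurane, a difference of -0.74 ± 0.21 (SE; limma adjusted p = 0.578). Slc4a11 had -0.49 ± 0.19, with 1.51 at its other probe, where isoflurane replicate 3 alone was high. The other Slc4a1 probe was above background on no array. The red cell marker values given beside Car2 stand beside Slc4a1 and Car1 as well, and Car1 had a difference in the other direction (0.75). The part of red cells in these values was not tested.

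Enzymes and transporters around these genes were read the same way. Of 8 enzymes that consume bicarbonate 8 were tested and 0 changed, with 0 at an unadjusted p under 0.05 and a median difference of 0.03. Cps1, which takes up bicarbonate in the first step of the urea cycle, had -0.28 ± 0.21, and the acetyl-CoA carboxylase Acaca had 0.23 ± 0.14. Of 10 genes of ammonium and glutamine handling 9 were tested and 0 changed (0 at an unadjusted p under 0.05; median -0.09), with 0.18 ± 0.13 for the ammonium transporter Rhbg. Larger differences with wider error in that list were -0.35 ± 0.31 for the aminotransferase Got1 and -0.33 ± 0.37 for the amino acid transporter Slc38a2. Proton and lactate transporters were tested for 9 of 16 genes, where 0 changed (0 at an unadjusted p under 0.05; median -0.09). Among them the proton pump subunit Atp6v1a had -0.16 ± 0.10 and the monocarboxylate transporter Slc16a7 -0.13 ± 0.10.

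Of 7 sensors of acid and bicarbonate 6 were tested and 0 changed, with 1 at an unadjusted p under 0.05. Their median difference was -0.35, with 5 of 6 negative, Gpr65 among them. Gpr65, a proton receptor of immune cells, had -0.58 ± 0.24. It was above background on all CO2/O2 arrays and on 1 of the 3 isoflurane arrays, so that it entered the test through the CO2/O2 group. The Kupffer cell marker values given beside Slc4a4 stand beside these sensors too, and their part in them was not tested. Of 6 genes of bicarbonate secretion in bile ducts 4 were tested and 0 changed (0 at an unadjusted p under 0.05; median -0.09). Cftr, the chloride channel of the duct, had -0.47 ± 0.27 and the bile acid transporter Slc10a2 0.78 ± 0.52. Over these 7 lists, 46 genes were tested, 6.52% had an unadjusted p under 0.05 and 15.2% had no overlap, both near the share of all genes.

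**Figure D4:**
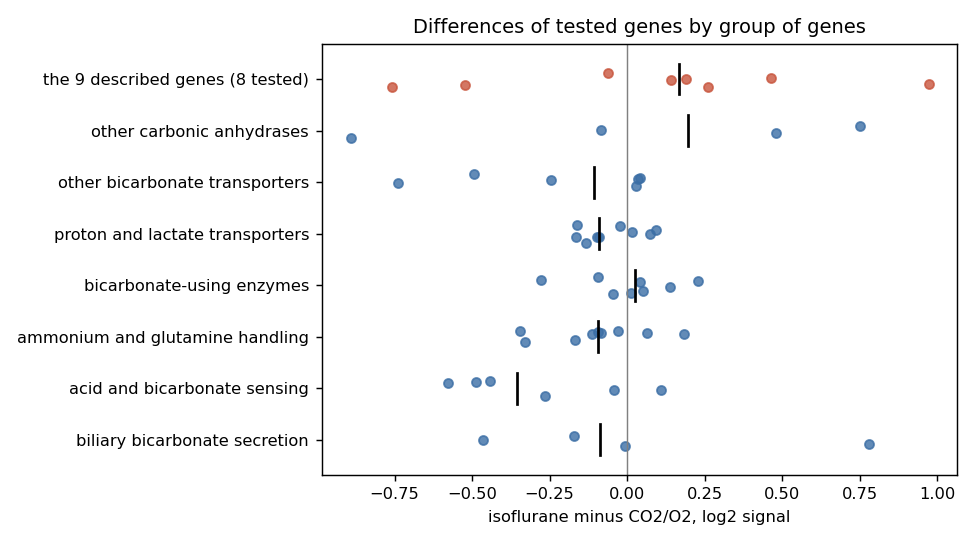
Difference in log2 signal, isoflurane minus CO2/O2 (x axis), of each tested gene (points, spread vertically so that they can be seen) in the 9 described genes (red) and in 7 lists of related genes (blue); the black line is the median of each. The described genes run from -0.76 for Car2 to 0.97 for Car3, and most genes of the transport and enzyme lists lie close to 0.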

How the data were processed

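Per the submitters' processing notes, the 6 arrays were read with Agilent Feature Extraction 10.7. The deposited scanner values are intensity, corrected for background inside each array and not scaled across arrays, per the file headers. The authors' value table holds a ratio, the processed intensity over 1 number per array (913.1 to 999.0), without centring of probes. The sources used here do not state how that number was set. On every array it lay close to the 75th percentile used here (912.5 to 998.3), so the deposited table is scaled nearly as in the main setting. The deposited table's medians were 0.0864, 0.0881 and 0.0868 for CO2/O2 and 0.0917, 0.0900 and 0.0905 for isoflurane replicates 1 to 3.

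From each log2 intensity the 75th percentile of its own array over 61657 non-control probes was subtracted. The 177 spots marked as outliers were left out, and 0 were saturated. Probes well above background on all 3 arrays of a group were tested with limma 3.58.1 in R 4.3.3 (lmFit, eBayes, Benjamini-Hochberg over all of them), a script that was tested on simulated data. Of all probes, 27460 matched 1 RefSeq gene by accession and 34197 none. For each gene the brightest tested probe stood for it. Files were read with Python 3.11.15 and pandas 2.3.3.

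The members and lists were chosen with earlier results of these data known. All 9 members were described; of each list, up to 4 genes past the threshold or, where fewer than 2 passed, the 2 with the largest moderated t were named. For the 3 members with the largest moderated t, the 3 most alike genes were named. Some genes that the rule names are not reported here. Outside this rule, Car4, Car6, Car11, Car12, Got1, Slc38a2 and single cell type markers were named after their values were seen. Alternatives were normexp with an offset of 50 on the median signal, quantile and median scaling, the deposited table, other filters, outlier spots kept, eBayes with trend, blocks for replicate number and slide row, gene means, and leaving out each array.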

Additional observations from a re-analysis of the deposited data

How the results depend on the processing

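With 3 rats per group, the confidence intervals of the 8 tested genes were wide, and a p that missed the threshold does not show equal levels. In all 17 alternatives 0 of the 8 passed, the lowest adjusted p being 0.407, against 4 at an unadjusted p under 0.05; that 4 became 1 to 4 across the alternatives. The direction was kept by 7 of the 8. Several alternatives could not turn it: other filters, outlier spots kept, trended eBayes and the replicate block left the difference of each gene unchanged. The deposited table left the differences almost unchanged. Car5a, at -0.06, was 0.35 with slide rows blocked, and it ranged from -0.26 to 0.08 over arrays left out: leaving out CO2/O2 replicate 3 gave 0.080, isoflurane replicate 2 gave 0.077 and isoflurane replicate 3 gave 0.0064. The cause was not tested. Over all probes 3 passed, against 5 with normexp, 1 when dim probes were not filtered, 5 with a trended, robust eBayes and 0 with the replicate block. Leaving out an array gave 1 to 20: 20 for CO2/O2 replicate 3, 17 for isoflurane replicate 1, 5 for isoflurane replicate 2, 2 for CO2/O2 replicate 2, and 1 each for CO2/O2 replicate 1 and isoflurane replicate 3. The replicate numbers name samples and do not pair them: same-numbered arrays correlated at 0.114, 0.0211 and 0.0600 in their deviations from the group means, and with the replicate block 0 of the 8 genes passed. All 6 arrays shared 1 slide, so slide could not be a block.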
